A study of Mus musculus with 6 samples.

Results

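The genes described here encode the proteins of the cytosolic ribosome. Rows of the deposited table were taken when the gene symbol began with Rpl or Rps and a number, or was Rplp0, Rplp1, Rplp2 or Rpsa; rows of pseudogenes, Rpl10l and the ribosomal S6 kinases were left out. This gave 85 rows out of 19532 gene rows, 34 of the small (40S) subunit and 51 of the large (60S) subunit by symbol. The rule took in Rps19bp1, which encodes a protein that binds Rps19 and is not part of the ribosome. It also took in 7 rows of paralogs, of which Rps4y2 is annotated in GENCODE M21 under the symbol Rps4l as a transcribed processed pseudogene. RNA was counted in single mouse embryonic stem cells (mESCs) of the established lines IB10 and R1 with SORT-seq, a plate form of CEL-Seq2 that reads the 3′ end of each transcript and counts molecules by their unique molecular identifiers (UMIs). All cells were grown with LIF in serum-free N2B27 medium. Primed_4d cells had 4 days of 12 ng/ml FGF2 and 20 ng/ml human Activin A with 2 µM IWP2, which blocks the secretion of WNT proteins; they were at passage 28 in IB10 and 24 in R1. Rosette_LIM cells had 2 µM IWP2 and 0.1 µM PD325901, an inhibitor of MEK, for 5 passages in IB10 and 6 in R1, and were at passage 33 and 28. LIF_2i cells had 3 µM CHIR99021, an inhibitor of GSK3, and 0.1 µM PD325901, and were at passage 28 in IB10 and 24 in R1. Passage number and condition cannot be told apart for rosette_LIM. Each line gave 1 sample per condition, here called a library, so that each comparison of conditions rests on 2 libraries a group. The labels do not speak of separate cultures, so the p-values here reflect how much these 6 libraries vary and may miss variation between cultures.

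A ribosome holds 1 copy of most of its proteins, and both subunits are built in the nucleolus on ribosomal RNA before export. The stalk of the large subunit, where elongation factors bind, is the exception: Rplp0 anchors several copies of Rplp1 and Rplp2. The mRNAs are among the most abundant of a dividing cell. They start with a run of pyrimidines (a TOP sequence) through which mTOR signalling controls their translation, and Myc proteins are known activators of the genes. In early mouse embryos, pluripotent cells grow and divide faster as they leave the naive state.

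RefSeq promoter windows (300 bases, 250 before and 50 after a gene start, build GRCm38.p6) were at hand for 64 of the 85 rows. Motifs were searched as exact letters. CCGGAAG, the core that ETS factors such as GABPA bind, was searched on both strands of the whole window and stood in 26 of 64 rows (40.6%), against 2265 of 17492 protein-coding genes (12.9%). CTTTCC, a pyrimidine run as found at TOP starts, was searched on the gene's strand from 50 bases before to 50 after the start and stood in 20 of 64 rows (31.2%), against 896 of 17492 genes (5.12%). The 2 motifs can overlap by the bases CC. Of the rows that rose in primed_4d over LIF_2i (below 0.05 in edgeR's adjusted test), 12 of 21 with a window held CCGGAAG (57.1%), against 14 of 43 other rows (32.6%), and 5 of 21 held CTTTCC (23.8%), against 15 of 43 (34.9%); these differences were not tested. The 150 bases before the start are shown for 8 genes, with CCGGAAG in either direction and CTTTCC within 50 bases of the start in capitals. Rps4x, Rps21, Rps3a1, Rps6, Rpl37 and Rpl35 are shown because they rose in primed_4d, Rpl4 because it had the most UMIs, and Rpl13 because it differed between the lines. They were chosen after their values were seen.
Rps4x, chrX:102189392-102189541, minus strand: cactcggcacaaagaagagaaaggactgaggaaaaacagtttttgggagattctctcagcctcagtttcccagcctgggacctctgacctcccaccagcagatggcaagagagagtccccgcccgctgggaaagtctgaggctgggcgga
Rps21, chr2:180257229-180257378, plus strand: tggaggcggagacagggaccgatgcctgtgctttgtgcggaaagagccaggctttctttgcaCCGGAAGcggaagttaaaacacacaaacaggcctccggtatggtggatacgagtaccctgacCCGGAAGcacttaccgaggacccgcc
Rps3a1, chr3:86142669-86142818, minus strand: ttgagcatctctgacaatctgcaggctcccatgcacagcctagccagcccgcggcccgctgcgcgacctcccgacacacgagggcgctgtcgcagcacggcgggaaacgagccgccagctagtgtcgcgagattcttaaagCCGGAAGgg
Rps6, chr4:86857368-86857517, minus strand: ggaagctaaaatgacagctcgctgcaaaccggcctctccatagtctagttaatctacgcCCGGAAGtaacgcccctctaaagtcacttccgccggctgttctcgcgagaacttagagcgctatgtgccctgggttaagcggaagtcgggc
Rpl37, chr15:5116463-5116612, plus strand: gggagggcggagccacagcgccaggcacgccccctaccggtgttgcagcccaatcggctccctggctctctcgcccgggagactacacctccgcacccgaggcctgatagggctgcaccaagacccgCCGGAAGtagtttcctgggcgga
Rpl35, chr2:39005132-39005281, minus strand: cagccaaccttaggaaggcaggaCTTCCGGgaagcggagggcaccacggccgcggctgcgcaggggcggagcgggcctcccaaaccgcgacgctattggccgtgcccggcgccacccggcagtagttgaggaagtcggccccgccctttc
Rpl4, chr9:64173237-64173386, plus strand: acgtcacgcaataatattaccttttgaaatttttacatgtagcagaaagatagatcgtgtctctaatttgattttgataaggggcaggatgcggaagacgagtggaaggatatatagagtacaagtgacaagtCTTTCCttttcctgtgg
Rpl13, chr8:123102200-123102349, plus strand: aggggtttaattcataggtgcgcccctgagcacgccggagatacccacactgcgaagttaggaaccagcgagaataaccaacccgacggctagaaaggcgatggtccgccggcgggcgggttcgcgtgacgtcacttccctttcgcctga
Neither motif stood in the stretches of Rps4x and Rpl13. Rps21 held CCGGAAG at 2 places, and in Rpl35 it lay on the opposite strand. A match is a description of these letters and does not show that a factor binds there.

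Each library held 188 wells and between 4614580 and 7688723 UMIs, and the median well had between 11285 and 41501 counts. Wells with fewer than 6000 counts numbered 18 and 84 in primed_4d, 38 and 9 in rosette_LIM, and 4 and 28 in LIF_2i, with IB10 before R1 here and in each such pair of values. Barcodes of 384 wells were pooled per amplification, and the labels do not say which samples shared a pool; no well had values equal to those of another. The labels were checked against marker lists. Naive markers summed to 282 and 248 CPM in primed_4d, 1412 and 1429 CPM in rosette_LIM, and 1892 and 1639 CPM in LIF_2i, and primed markers to 1611 and 1581 CPM in primed_4d, 230.0 and 163 CPM in rosette_LIM, and 175 and 166 CPM in LIF_2i. Of the 5 primed markers, 4 were higher in primed_4d than in rosette_LIM by edgeR's adjusted test (17.1% of all genes). Otx2 had 18.3 and 13.9 CPM in primed_4d and 15.1 and 13.2 CPM in rosette_LIM. All 5 core pluripotency markers were above 0 in every library. They summed to 1544 and 1508 CPM in primed_4d, 2833 and 3148 CPM in rosette_LIM, and 2760 and 2713 CPM in LIF_2i. By edgeR's adjusted test 4 of the 5 were lower in primed_4d than in LIF_2i, where 19.6% of all genes were. The feeder fibroblast, primitive endoderm, mesendoderm and 2-cell-like lists summed to between 1.03 and 28.8 CPM. Neuroectoderm markers summed to 78.5 and 149.6 CPM in primed_4d, 173 and 216 CPM in rosette_LIM, and 78.3 and 88.9 CPM in LIF_2i, and trophectoderm markers to 19.6 and 24.4 CPM in primed_4d, 72.6 and 70.8 CPM in rosette_LIM, and 59.2 and 53.3 CPM in LIF_2i; their part in the results below was not tested.

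The ribosomal protein rows spanned nearly 4 orders of magnitude in level, although the proteins are needed in nearly equal numbers. Since 1 UMI stands for 1 transcript end, levels are given as gene counts scaled to a common library total, as CPM, without a correction for length. Rpl4, whose protein lines the exit tunnel for the new chain, had the highest mean, 6536 CPM, and held 4.25% of all counts of these rows. It had 7007 and 6363 CPM in primed_4d, 5595 and 7013 CPM in rosette_LIM, and 7249 and 5992 CPM in LIF_2i. The highest and lowest library of Rpl4 both lay in other conditions than primed_4d, and the groups overlapped. Rpsa, the small subunit protein also known as a laminin receptor, followed with a mean of 4045 CPM, then Rpl13 with 4011, Rpl41, the shortest of the ribosomal proteins, with 3495, and Rplp1 of the stalk with 3492. The last 2 did not differ beyond the spread over libraries, which ran from 3125 to 4109 CPM in Rpl41 and from 3294 to 3959 CPM in Rplp1. The median row stood at 1819 CPM, 65 rows had means of 1000 CPM or more, and the 10 highest held 24.7% of the counts.

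At the low end, 9 rows had means under 25 CPM, and 7 of them are ordinary ribosomal proteins. Rpl26 had 28 UMIs and Rps27 had 33 UMIs over all 6 libraries. Rplp2, the partner of Rplp1 in the stalk, had 113 UMIs, against 120936 for Rplp1. Rpl34, Rpl30, Rps15a and Rpl37 had between 161 and 659 UMIs. The remaining pair were Rpl3l, a muscle paralog, with 92 UMIs and Rpl22l1 with 71. These levels are given as the table lists them. Within 300 bases of the 3′ end of the annotated transcript chosen for each gene, stretches of 60 bases (the read length) were compared with all other annotated genes in GENCODE M21. The choice went by annotation rank and then by length. More than 50% of the stretches occurred exactly in another gene for 5 of the 9 rows under 25 CPM, for 4 of the 11 rows between 25 and 1000 CPM, and for 30 of the 65 rows of 1000 CPM or more. Rps27 shared 100% and Rpl26 58.9% of its stretches, while Rpl37 shared none and Rplp2 2.49% in chosen transcripts of 835 and 964 bases. Other 3′ ends of a gene were not examined, so a low share does not show that its reads matched 1 place. Rows such as Rpl10 and Rpl9 shared 100% and still stood at 2856 and 2004 CPM. Nothing in the sources used here says how reads that match several places were counted, so the 39 rows that share over 50% are uncertain in level.

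**Figure D1:**
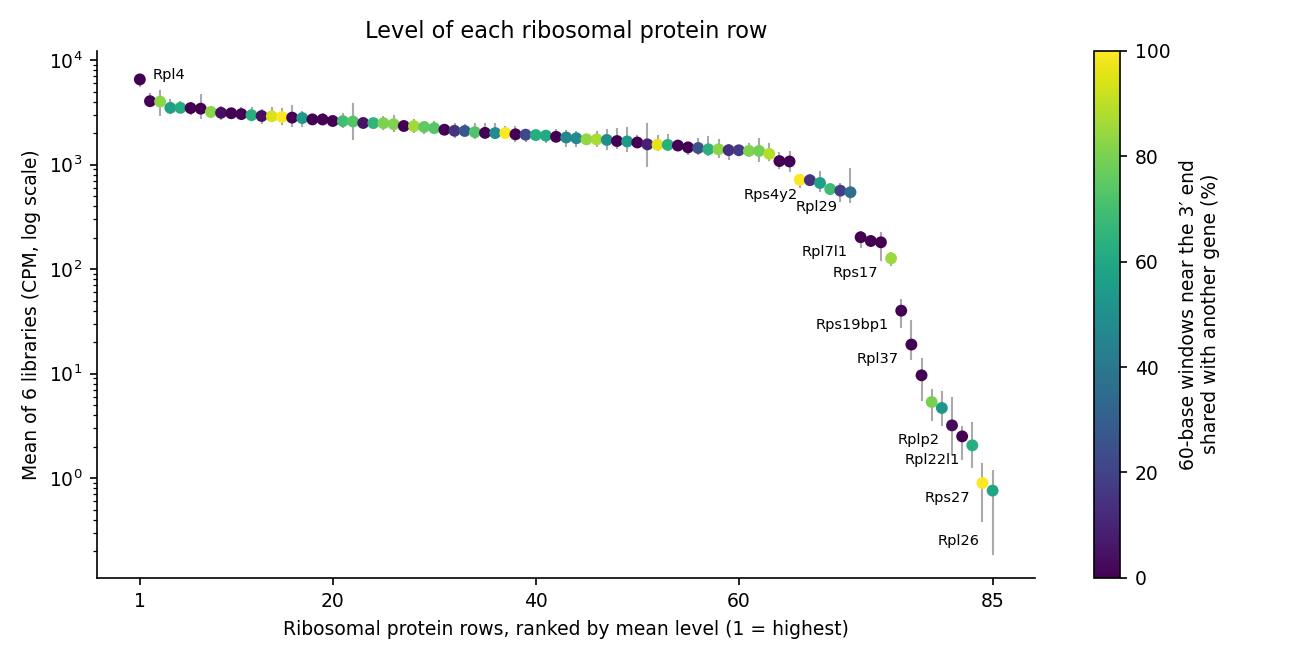
Mean level of each of the 85 rows over the 6 libraries (CPM, log scale), ranked from the highest, with a line from the lowest to the highest library. Colour gives the share of 60-base stretches near the 3′ end that also occur in another gene (%), and both light and dark points stand at the high and at the low end.

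Taken as a sum, ribosomal protein transcripts made up a larger share of the counts in primed_4d than in the other conditions, in both lines. The share was 15.8 and 17.7% in primed_4d, 14.4 and 15.2% in rosette_LIM, and 14.4 and 14.7% in LIF_2i. The lower primed_4d library, that of IB10, lay above the highest of the other 4 libraries, that of R1 rosette_LIM. As means over lines this was 16.7% ± 1.32 in primed_4d, 14.8% ± 0.576 in rosette_LIM and 14.6% ± 0.180 in LIF_2i (SD, n = 2 libraries each). The exact 95% binomial interval of the R1 primed_4d library ran from 17.6% to 17.7%; such intervals cover counting error only and were narrower than the differences between lines. Small subunit rows held 6.51 and 7.32% in primed_4d, 5.85 and 6.10% in rosette_LIM, and 5.85 and 5.98% in LIF_2i, and large subunit rows 9.28 and 10.3% in primed_4d, 8.56 and 9.13% in rosette_LIM, and 8.58 and 8.70% in LIF_2i. The ratio of small to large subunit counts was 0.702 and 0.709 in primed_4d, 0.684 and 0.668 in rosette_LIM, and 0.682 and 0.688 in LIF_2i. The primed_4d libraries had the highest ratios, and the lower of them lay above the 4 others.

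The share is relative to all gene counts. Against the ERCC spike-in RNA the picture differed: ribosomal protein counts per ERCC count were 9.47 and 6.99 in primed_4d, 6.91 and 7.79 in rosette_LIM, and 10.6 and 10.1 in LIF_2i. By this measure the LIF_2i libraries were the highest in both lines, and the order of primed_4d and rosette_LIM differed between the lines. ERCC counts were 1.67 and 2.53% in primed_4d, 2.08 and 1.95% in rosette_LIM, and 1.36 and 1.45% in LIF_2i of the gene counts. Less RNA per cell, fewer cells of a type and a lower yield per well cannot be told apart in these sums. The sums and the fits scaled to ERCC counts include wells under 6000 counts, which were most frequent in R1 primed_4d (84 of 188). They were not repeated without such wells. Genes of the mitochondrial genome, a common gauge of cell quality, held 8.91 and 7.72% in primed_4d, 11.1 and 9.38% in rosette_LIM, and 10.8 and 9.45% in LIF_2i of gene counts. Their mRNAs alone held 7.31 and 6.65% in primed_4d, 9.28 and 7.51% in rosette_LIM, and 8.72 and 7.75% in LIF_2i. Both sums were lowest in R1 primed_4d, where the ribosomal protein share was highest. With these genes left out of the total, the ribosomal protein share was 17.3 and 19.1% in primed_4d, 16.2 and 16.8% in rosette_LIM, and 16.2 and 16.2% in LIF_2i, and both primed_4d libraries still lay above the other 4.

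Per well, among wells of 6000 counts or more, the shift was seen in the body of the cells rather than in a few of them. Among wells of 6000 counts or more, the median share was 15.9 and 18.0% in primed_4d, 14.3 and 15.3% in rosette_LIM, and 14.3 and 14.3% in LIF_2i. Wells above 17% made up 28.2% of 170 and 60.6% of 104 wells in primed_4d, 6.67% of 150 and 15.6% of 179 in rosette_LIM, and 8.15% of 184 and 8.75% of 160 in LIF_2i. The spread between wells, as an SD, was 2.00 and 2.87% in primed_4d, 1.70 and 1.59% in rosette_LIM, and 1.47 and 1.64% in LIF_2i. Counting error alone would give 0.187 to 0.259 percentage points. Differences between cells cannot be told apart here from differences between wells in lysis, capture and amplification. Thinning every well to 6000 counts gave medians of 15.8 and 17.8% in primed_4d, 14.5 and 15.1% in rosette_LIM, and 14.2 and 14.4% in LIF_2i. With no minimum the medians were 15.8 and 15.1% in primed_4d, 14.1 and 15.2% in rosette_LIM, and 14.3 and 14.4% in LIF_2i. In R1, primed_4d then lay no higher than rosette_LIM.

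Shallow wells behaved differently from the rest of their library, and not in the same direction everywhere. In R1 primed_4d, the 82 wells under 3000 counts had a median share of 13.2%, against 18.4% in wells of 6000 to 20000. In R1 LIF_2i, the 20 wells under 3000 counts had 17.0%, against 14.1% in wells of 20000 to 50000. These wells hold few of the counts, and leaving out all wells under 6000 gave library shares of 15.8 and 17.8% in primed_4d, 14.4 and 15.2% in rosette_LIM, and 14.4 and 14.7% in LIF_2i. Averaged over all wells with equal weight, shallow ones included, the share was 15.8 and 15.8% in primed_4d, 14.3 and 15.3% in rosette_LIM, and 14.5 and 14.9% in LIF_2i, so that the lines came out level in primed_4d. Across wells of 6000 or more, the share of ribosomal protein rows and that of mitochondrial genes had a Spearman's rho from −0.44 to −0.17 in the 6 libraries (104 to 184 wells). Both are shares of the same total and cells are not replicates, so this is a description. With wells thinned to 6000 counts, the variance over the mean across wells had a median over ribosomal protein rows of 3 or more mean counts of 1.48 and 1.59 in primed_4d, 1.26 and 1.32 in rosette_LIM, and 1.26 and 1.34 in LIF_2i. The other genes of 3 or more mean counts had medians of 1.43 and 1.35 in primed_4d, 1.33 and 1.34 in rosette_LIM, and 1.20 and 1.25 in LIF_2i. Above that minimum they were not matched to the rows for level. The 2 medians lay closest in R1 rosette_LIM and farthest apart in R1 primed_4d. The most variable row was Rps20 in IB10 primed_4d, Rpl4 in R1 primed_4d, IB10 rosette_LIM and IB10 LIF_2i, Rpl41 in R1 rosette_LIM and Rpl13 in R1 LIF_2i.

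**Figure D2:**
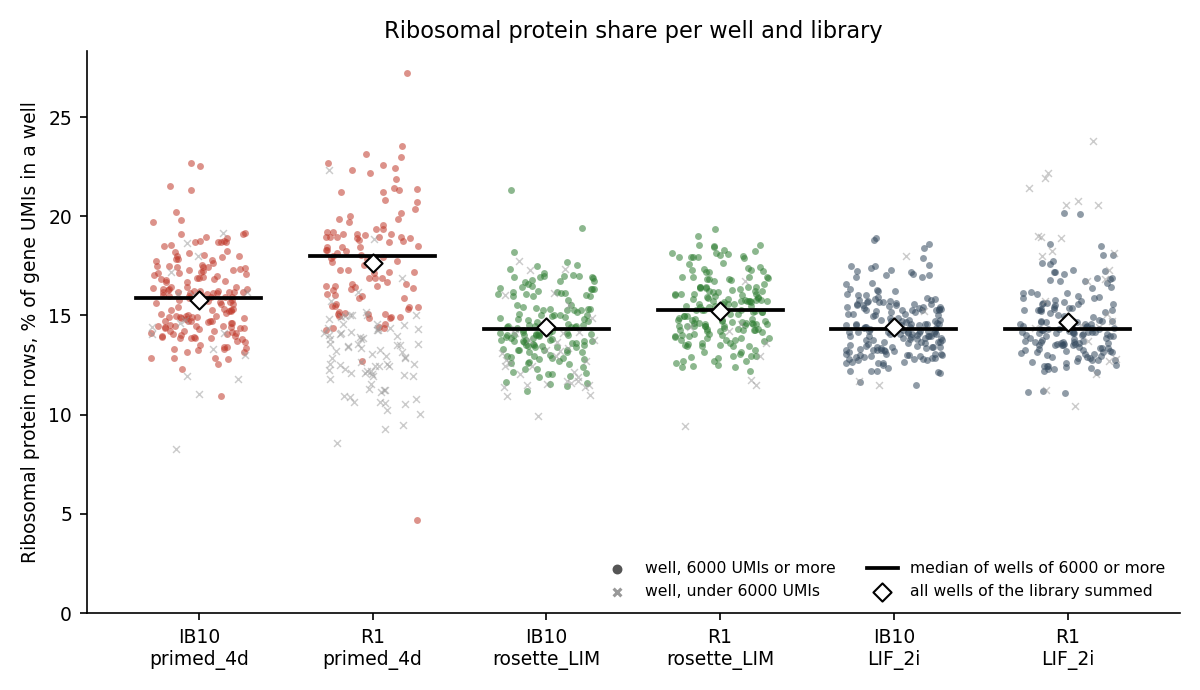
Share of ribosomal protein rows in the gene UMI counts of each well (%), by library, with primed_4d on the left. Circles are wells of 6000 counts or more, crosses shallower wells, bars the median of the circles and diamonds the share in all wells summed. The bar of primed_4d is the highest of each line, and most of the R1 primed_4d crosses lie under the bar of its circles.

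Primed_4d was compared with LIF_2i to ask which ribosomal protein genes differ between them. Primed_4d had 4 days of FGF2, Activin A and IWP2, and it lacked CHIR99021 and PD325901. The effects of these changes of medium cannot be told apart. By edgeR's quasi-likelihood test with Benjamini-Hochberg adjustment at 0.05, 29 of the 83 rows tested were called higher (34.9%), where 18.3% of all 12098 genes were, and 2 were called lower (2.41%), where 19.6% of all genes were. The share over all genes, here and below, was not matched for level. Most of the rows (65 of 85) had means of 1000 CPM or more, and smaller changes can pass at high levels. The median log2 fold change was 0.21 over the rows and −0.01 over all genes, and 70 of the 83 rows lay above 0. The called rises ran from 0.27 to 0.55 on the log2 scale, and each of the 29 was higher within IB10 and within R1 by CPM. By subunit, and without paralogs and Rps19bp1, 14 of 30 small subunit rows and 14 of 45 large subunit rows were called higher and none was called lower; the difference between subunits was not tested. Rpl26 and Rps27 were too low to be tested.

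Among small subunit proteins, Rps4x, encoded on the X chromosome (GRCm38 chrX:102184941-102189394, as all positions of genes here from the GENCODE M21 annotation), had 1948 and 2144 CPM in primed_4d, 1713 and 1603 CPM in rosette_LIM, and 1419 and 1512 CPM in LIF_2i. Both primed_4d libraries lay above the other 4, and the rise over LIF_2i was log2 0.50 ± 0.10, edgeR adjusted p = 0.000992. It was the only row of this comparison that stayed called whichever library was left out. Rps23, which lies at the decoding centre (chr13:90922958-90924950), had 1551 and 2451 CPM in primed_4d, 976 and 1540.3 CPM in rosette_LIM, and 1318 and 1538 CPM in LIF_2i. The IB10 primed_4d library lay only just above the R1 library of LIF_2i; the rise was log2 0.46 ± 0.12, edgeR adjusted p = 0.00605. Rpsa had 4764 and 4439.6 CPM in primed_4d, 3723 and 3730.5 CPM in rosette_LIM, and 3865 and 3747 CPM in LIF_2i, with both primed_4d libraries the highest (log2 0.29 ± 0.09, edgeR adjusted p = 0.0212).

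Among large subunit proteins, Rpl37 showed the largest called rise (log2 0.55 ± 0.20, edgeR adjusted p = 0.0429) but rests on 659 UMIs. It had 19.2 and 31.7 CPM in primed_4d, 13.9 and 14.6 CPM in rosette_LIM, and 16.0 and 18.5 CPM in LIF_2i. R1 primed_4d stood apart and IB10 primed_4d lay only just above R1 LIF_2i. Rpl22, an RNA-binding protein at the surface of the large subunit, had 1221 and 1301 CPM in primed_4d, 1022 and 1048 CPM in rosette_LIM, and 969 and 928 CPM in LIF_2i, with no overlap between primed_4d and the rest (log2 0.42 ± 0.10, edgeR adjusted p = 0.00319). Rpl5 and Rpl11, which join the ribosome with the 5S rRNA and bind Mdm2 when assembly fails, both rose, Rpl5 by 0.28 ± 0.10 and Rpl11 by 0.35 ± 0.10 on the log2 scale (edgeR adjusted p of 0.0335 and 0.0101). Of the stalk, none passed the test: Rplp0 had 0.23 ± 0.10, Rplp1 0.10 ± 0.09 and Rplp2 −0.24 ± 0.47 on the log2 scale (edgeR adjusted p of 0.0835, 0.442 and 0.714). Of the 5 rows with the most UMIs, Rpsa rose, as given above, while Rpl4 (0.03 ± 0.12), Rpl13 (0.18 ± 0.09) and Rpl41 (0.16 ± 0.10) did not pass, like Rplp1 (edgeR adjusted p of 0.872 for Rpl4, 0.145 for Rpl13 and 0.252 for Rpl41). Other rises that passed included those of Rpl10, Rpl10a, Rpl23, Rpl23a, Rpl27, Rpl35, Rpl39, Rpl6, Rpl7, Rps10, Rps20, Rps21, Rps27a, Rps27l, Rps3, Rps3a1, Rps6 and Rps7, with log2 fold changes from 0.27 to 0.39. The rows that fell were Rpl7l1, a paralog of Rpl7, and Rps19bp1.

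The size of this set depended on the libraries and on the scaling. Without the R1 LIF_2i library 1 row was called higher, without that of IB10 5 rows, and without R1 primed_4d 8 rows; without any of the other 3 libraries it was 31 to 38. The median over the rows stayed above 0 in these 6 fits, at 0.14 to 0.29. Fewer of all genes were likewise called without either LIF_2i library. Without wells under 6000 counts 29 rows were called higher, and likewise without the 2 deepest wells of R1 LIF_2i. Scaled to the ERCC counts, all genes shifted by a median of −0.57 and the ribosomal protein rows by −0.34, so that each of the 7 rises given above with their values had a fitted value under 0 that passed no test; relative to all genes the rows stayed 0.22 higher.

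Primed_4d was also compared with rosette_LIM, which shares the LIF_2i libraries only through the common estimate of spread. Here 18 of 83 rows were called higher (21.7%; 17.1% of all genes) and 2 lower (2.41%; 19.0% of all genes), with a median log2 fold change of 0.14 over the rows and 0.00 over all genes. The median of the rows was 0.08 without R1 primed_4d and 0.14 to 0.20 without any other library. Rps23 rose by log2 0.65 ± 0.12, edgeR adjusted p = 0.000537, and its primed_4d library lay above the rosette_LIM library in each line. Rps2, which sits at the entry of the mRNA channel (chr17:24718116-24721929), had 2491 and 3821 CPM in primed_4d, 1744 and 2229 CPM in rosette_LIM, and 2395 and 2824 CPM in LIF_2i. Rosette_LIM was the lowest condition in each line, and the rise was log2 0.64 ± 0.11, edgeR adjusted p = 0.000296. Rps23, Rps2 and Rpl10, the protein that joins the large subunit last in the cytoplasm (log2 0.35 ± 0.09, edgeR adjusted p = 0.00924), were the 3 rows called whichever library was left out. Over 50% of the 60-base stretches of Rps2 and all of those of Rpl10 occur in other genes as well.

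Rplp0, the base of the stalk, had 2909.8 and 3642 CPM in primed_4d, 2371 and 2357 CPM in rosette_LIM, and 2709 and 2911 CPM in LIF_2i. Both primed_4d libraries lay above the 2 rosette_LIM libraries, which nearly coincided (log2 0.45 ± 0.10, edgeR adjusted p = 0.0029). Rps19, the protein most often mutated in human Diamond-Blackfan anaemia, had 1609.6 and 2263 CPM in primed_4d, 1338 and 1553 CPM in rosette_LIM, and 1541 and 1692 CPM in LIF_2i and rose by log2 0.39 ± 0.11, edgeR adjusted p = 0.00915. Rpl29 had 449 and 912 CPM in primed_4d, 439.9 and 458 CPM in rosette_LIM, and 461 and 547 CPM in LIF_2i. Only the R1 primed_4d library stood out; the pooled rise passed the test (log2 0.52 ± 0.17, edgeR adjusted p = 0.0253), but without that library it was 0.06 (edgeR adjusted p = 0.77), and the call was also lost without R1 rosette_LIM or R1 LIF_2i. Rpl37 rose by 0.80 ± 0.21 (edgeR adjusted p = 0.00866), a call that was lost without R1 primed_4d or R1 rosette_LIM.

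A pair of rows ran the other way and fell in primed_4d against rosette_LIM. Rpl37a, a zinc-binding protein of the large subunit, had 872 and 1006 CPM in primed_4d, 1309 and 1162 CPM in rosette_LIM, and 1045 and 1037 CPM in LIF_2i. Both rosette_LIM libraries were the highest of their line (log2 −0.41 ± 0.11, edgeR adjusted p = 0.00754). Rps29, a zinc-binding protein of the small subunit, had 1521 and 1753 CPM in primed_4d, 1892 and 2098 CPM in rosette_LIM, and 1800.1 and 1852 CPM in LIF_2i (log2 −0.30 ± 0.10, edgeR adjusted p = 0.0231). Its primed_4d library was the lowest of each line. The call of Rpl37a was lost without IB10 primed_4d or IB10 rosette_LIM. That of Rps29 was lost without IB10 primed_4d, R1 rosette_LIM or R1 LIF_2i, and DESeq2 did not call it. In all, 13 rows were called higher in primed_4d against each of the other conditions and 34 against at least 1, where the 2 comparisons share the primed_4d libraries. The same 2 counts were not taken over all genes, so they are a description. Taken singly, the comparisons with LIF_2i and rosette_LIM called 34.9% and 21.7% of rows higher, against 18.3% and 17.1% of all genes. Without R1 primed_4d 6 rows were called higher against rosette_LIM, and without the other libraries 10 to 23. With ERCC scaling none was called, although the median of all genes hardly moved (−0.01) and that of the rows was 0.14; Rps23 and Rps2 then had 0.63 and 0.62 with edgeR adjusted p of 0.199 and 0.201.

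**Figure D3:**
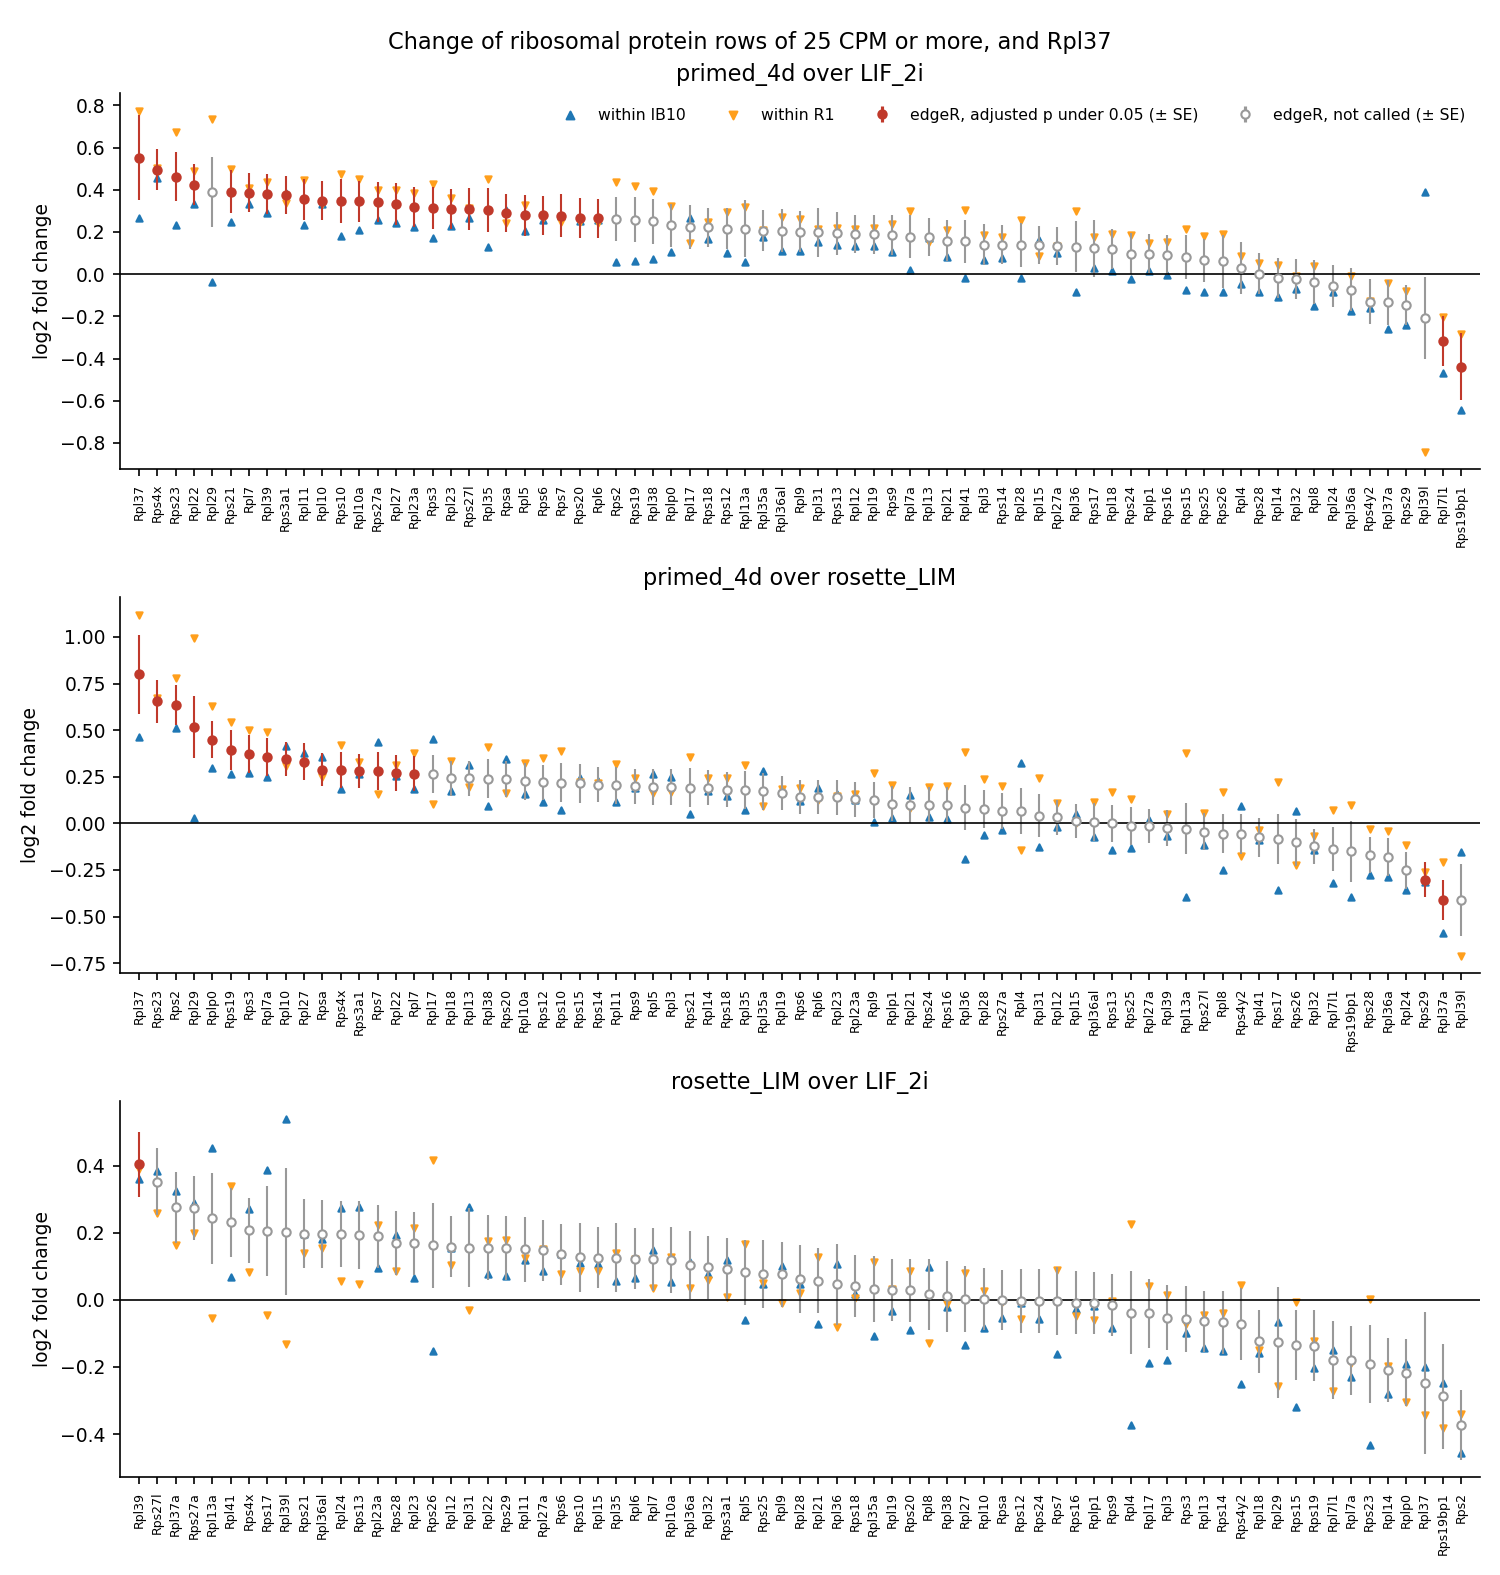
Log2 fold change of the ribosomal protein rows reported here of 25 CPM or more, and of Rpl37, in 3 comparisons, each sorted from high to low. Circles are edgeR estimates ± standard error over 6 libraries, filled red where the adjusted p was under 0.05; triangles are the changes within IB10 (up) and R1 (down) by CPM. Most rows lie above 0 in primed_4d over LIF_2i, and 1 circle is filled in rosette_LIM over LIF_2i.

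Rosette_LIM against LIF_2i, which asks what a block of WNT secretion in place of GSK3 inhibition does while MEK stays inhibited, moved few ribosomal protein rows past the test. By edgeR 1 of 83 rows was called higher (1.2%, against 3.18% of all genes) and 0 were called lower (2.34% of all genes). An unadjusted edgeR p under 0.05 was found for 9 of the 83 rows and for 2381 of all 12098 genes. DESeq2 also called 1 row higher and 0 lower. The median log2 fold change was 0.08, against 0.00 over all genes; it was 0.00 without R1 LIF_2i and 0.06 to 0.12 without any other library. The row called was Rpl39, whose short protein lines the exit tunnel and whose gene is on the X chromosome (chrX:37082520-37085402). It had 1433 and 1532 CPM in primed_4d, 1504 and 1483 CPM in rosette_LIM, and 1172 and 1131 CPM in LIF_2i. The 2 LIF_2i libraries were the lowest, and primed_4d and rosette_LIM overlapped. Rpl39 rose by log2 0.40 ± 0.10, edgeR adjusted p = 0.0225 in rosette_LIM and by log2 0.38 ± 0.10, edgeR adjusted p = 0.00616 in primed_4d, both against the same LIF_2i libraries, and was under 0 in both with ERCC scaling. The call in rosette_LIM was lost without either LIF_2i library, where fewer of all genes were called as well. With ERCC scaling the value of Rpl39 in rosette_LIM was −0.14. Rps27l, a paralog of Rps27 known as a p53 target, and Rps2 came next without passing: log2 0.35 ± 0.10, edgeR adjusted p = 0.0548 for Rps27l, and log2 −0.37 ± 0.11, edgeR adjusted p = 0.0533 for Rps2.

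**Figure D4:**
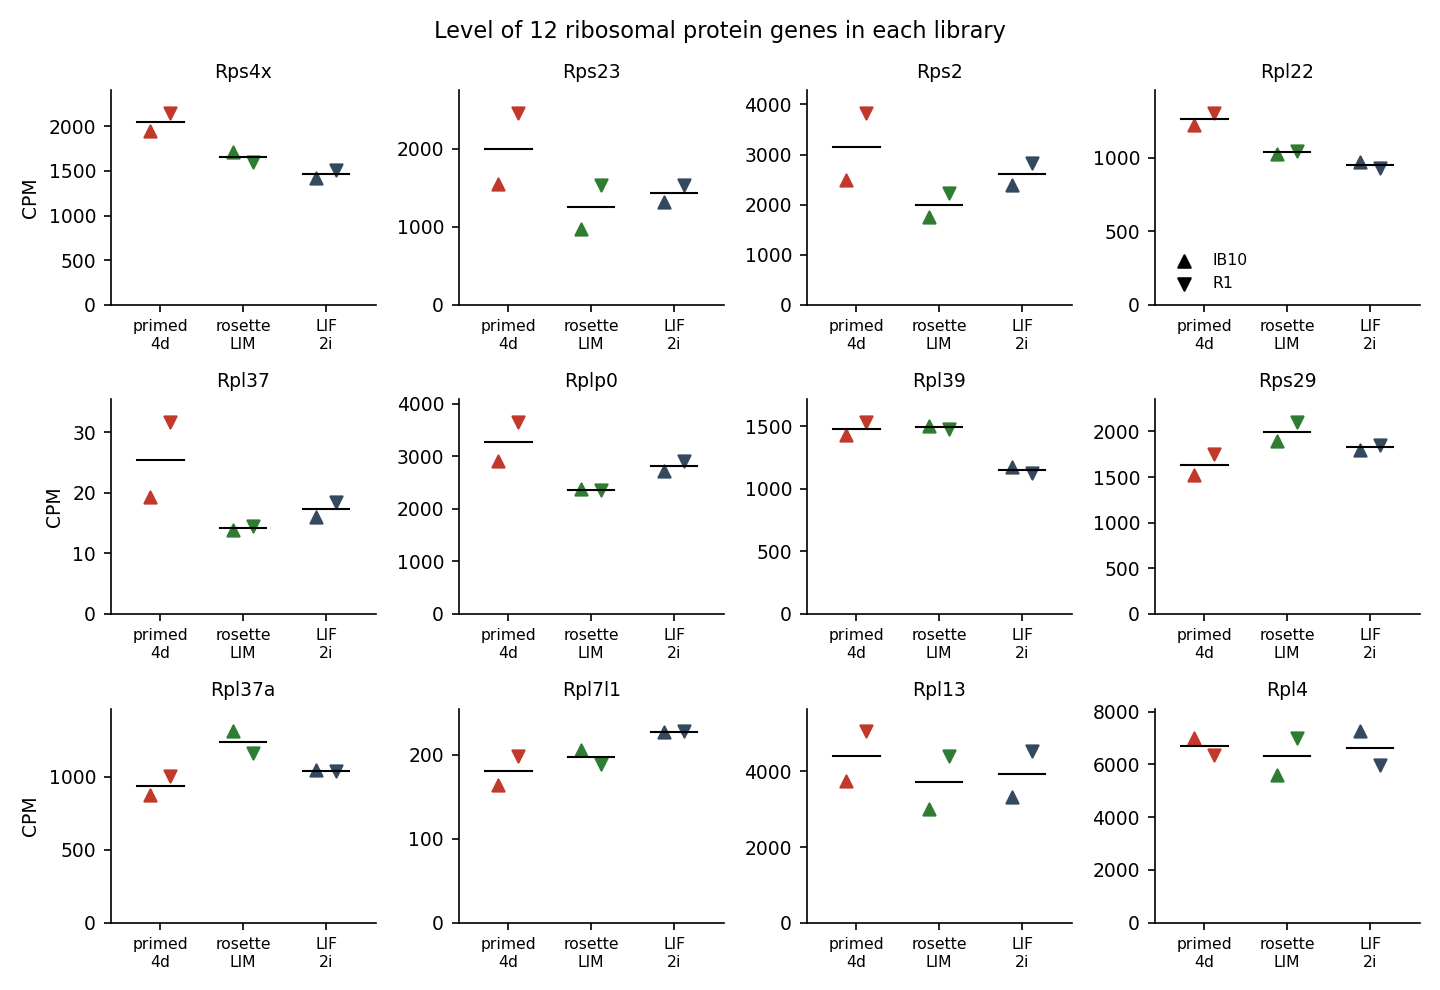
Levels of 12 ribosomal protein genes (CPM, axes from 0) in each library, primed_4d left and LIF_2i right; up triangles are IB10, down triangles R1 and bars the mean of 2 libraries. Rps4x is highest in both primed_4d libraries, Rpl39 is lowest in both LIF_2i libraries, and Rpl13 is lower in IB10 than in R1 within each condition.

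Of the 7 paralog rows, 1 was called higher and 1 lower in primed_4d over LIF_2i (14.3% and 14.3%, against 18.3% and 19.6% of all genes), and the median was −0.13. Rps27l had 541 and 652 CPM in primed_4d, 587 and 627 CPM in rosette_LIM, and 449.8 and 524 CPM in LIF_2i; it rose in primed_4d over LIF_2i (log2 0.31 ± 0.10, edgeR adjusted p = 0.0255; −0.25 with ERCC scaling), while its parent Rps27 was too low to be tested. Rpl7l1, a paralog of Rpl7 that takes part in ribosome assembly, had 164 and 198 CPM in primed_4d, 205 and 189 CPM in rosette_LIM, and 227 and 228 CPM in LIF_2i. It fell in primed_4d (log2 −0.32 ± 0.12, edgeR adjusted p = 0.0463), a call lost without IB10 primed_4d or either LIF_2i library, where Rpl7 itself rose (log2 0.39 ± 0.09, edgeR adjusted p = 0.00491; −0.17 with ERCC scaling). The 2 changes were not tested against each other, and both have nonoverlapping levels between primed_4d and LIF_2i. Rpl39l, known in mouse from male germ cells, had 186 and 124 CPM in primed_4d, 207 and 202 CPM in rosette_LIM, and 142 and 222 CPM in LIF_2i. It passed no test (in primed_4d over LIF_2i log2 −0.21 ± 0.19, edgeR adjusted p = 0.421), and the lines moved in opposite directions. Rpl36al (log2 0.21 ± 0.10, edgeR adjusted p = 0.125), with its parent Rpl36a (log2 −0.07 ± 0.10, edgeR adjusted p = 0.596), and Rps4y2 (log2 −0.13 ± 0.11, edgeR adjusted p = 0.362), whose parent Rps4x rose, were not called. Rpl22l1 and Rpl3l had 71 and 92 UMIs and were not called; their parents Rpl22 and Rpl3 had 37616 and 80193.

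Rps19bp1, whose product also binds SIRT1, had 28.1 and 41.7 CPM in primed_4d, 37.0 and 38.9 CPM in rosette_LIM, and 43.9 and 50.7 CPM in LIF_2i. Both primed_4d libraries lay under both LIF_2i libraries, and it fell (log2 −0.44 ± 0.16, edgeR adjusted p = 0.0422), a call also lost without those 3 libraries in turn. DESeq2 called neither of the 2 falls. Rpl10l, an intronless copy of Rpl10 that was left out of the set by its rule, fell in primed_4d over LIF_2i, with 207 and 118 CPM in primed_4d, 256 and 399.7 CPM in rosette_LIM, and 331 and 339 CPM in LIF_2i (log2 −1.03 ± 0.22, edgeR adjusted p = 0.00189), while Rpl10 rose on the main scaling (log2 0.35 ± 0.09, edgeR adjusted p = 0.00854). Rpl10 shares all its stretches near the 3′ end with other genes, so reads of the 2 could have been divided in ways that were not tested.

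IB10 was compared with R1 across the 3 conditions to see whether the lines differ. Of 83 rows 3 were called lower in IB10 (3.61%, against 0.512% of all genes) and 0 higher (0.24% of all genes). An unadjusted edgeR p under 0.05 was found for 13 of the 83 rows and for 1291 of all 12098 genes. DESeq2 called 2 rows lower and 0 higher. Rps23 was lower in IB10 in all 3 conditions, by the levels given above (log2 −0.51 ± 0.10, edgeR adjusted p = 0.0226). Rpl13, a large subunit protein (chr8:123102350-123105244), had 3736 and 5052 CPM in primed_4d, 3003 and 4408 CPM in rosette_LIM, and 3317 and 4548 CPM in LIF_2i. Each IB10 library lay under each R1 library (log2 −0.47 ± 0.07, edgeR adjusted p = 0.0107). Rps2 was lower in IB10 in each condition as well and passed the test narrowly (log2 −0.40 ± 0.09, edgeR adjusted p = 0.0499). Each call rests on few libraries: Rpl13 was not called without either LIF_2i library, Rps23 not without R1 LIF_2i or R1 primed_4d, and Rps2 was called in 2 of 6 such fits. Fewer of all genes were also called without either LIF_2i library, so a call lost there is not particular to these rows. With ERCC scaling, which moved the median of all genes to 0.19, none was called, and Rps23 and Rpl13 had −0.31 and −0.28.

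Rpl13 lies on chromosome 8. The 662 genes tested there that are not ribosomal protein rows had a median of −0.31, and 28 of them were called lower in IB10 and 0 higher, whereas the medians of the other autosomes and the X chromosome ran from −0.02 to 0.09. Rps23 on chromosome 13 and Rps2 on chromosome 17 lay on chromosomes with medians of 0.00 and 0.03. On chromosome 6, where the median was the highest of the nuclear chromosomes, Rpl32 and Rps4y2 had −0.02 ± 0.08 and 0.05 ± 0.09 (edgeR adjusted p of 0.967 and 0.913). Whether the chromosome takes part in the difference of Rpl13 was not tested. The median over all ribosomal protein rows was −0.06, and 64 of 83 lay under 0. It was 0.00 without either primed_4d library and −0.09 to −0.08 without any other, and 0.13 with ERCC scaling, where that of all genes was 0.19.

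**Figure D5:**
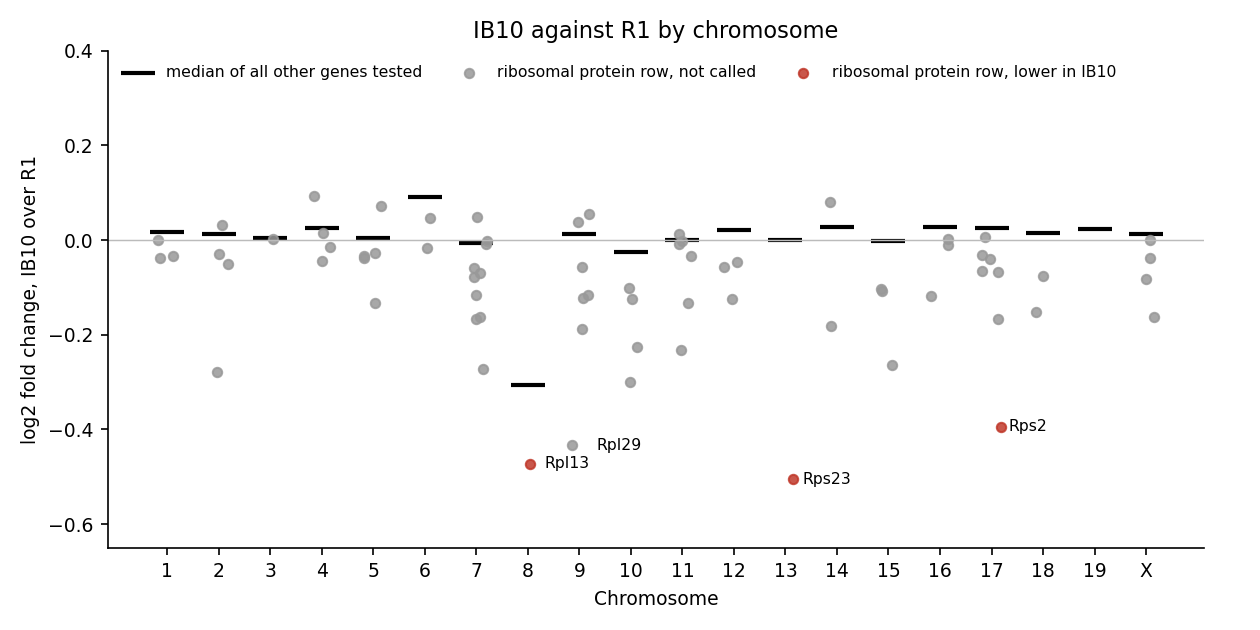
Log2 fold change of IB10 over R1 (edgeR, condition in the model) of the ribosomal protein rows reported here of 25 CPM or more, by chromosome. Black bars are medians of all other genes tested on that chromosome, and red points are rows called lower in IB10. The bar of chromosome 8 lies far under 0, beside Rpl13, while Rps23 and Rps2 lie on chromosomes with bars near 0.

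Genes that work with ribosomal proteins were followed as lists. Other translation genes with TOP mRNAs summed to 32655 and 36146 CPM in primed_4d, 26646 and 27910.2 CPM in rosette_LIM, and 26729 and 27379 CPM in LIF_2i, so that primed_4d was the highest here too. In primed_4d over LIF_2i they were called 7 higher and 1 lower of 21 tested, median log2 0.16 (33.3% and 4.76%, against 18.3% and 19.6% of all genes). In primed_4d over rosette_LIM the calls were 7 higher and 1 lower of 21 tested, median log2 0.17 (33.3% and 4.76%, against 17.1% and 19.0% of all genes). In rosette_LIM over LIF_2i edgeR gave 0 higher and 0 lower of 21 tested, median log2 0.04 (0% and 0%, against 3.18% and 2.34% of all genes). Of the 21 genes 5 had an unadjusted edgeR p under 0.05, as had 2381 of all 12098 genes. The elongation factor Eef2 had 2353 and 2854 CPM in primed_4d, 1463 and 1434 CPM in rosette_LIM, and 1443 and 1549 CPM in LIF_2i. Its primed_4d libraries lay well above the other 4 (log2 0.81 ± 0.10, edgeR adjusted p = 1.88e-05 over LIF_2i). Tpt1 and Eef1a1, of which Eef1a1 delivers aminoacyl-tRNA, rose in the same comparison by 0.65 and 0.61 on the log2 scale (edgeR adjusted p of 5.80e-05 and 0.000168). Over rosette_LIM, Eef2 and Eef1a1 rose by 0.83 and 0.50 in primed_4d. Vim, an intermediate filament gene whose mRNA is of the TOP kind, fell in primed_4d over rosette_LIM (log2 −0.81 ± 0.11, edgeR adjusted p = 7.49e-05).

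Genes of ribosome assembly in the nucleolus were called 11 higher and 1 lower of 40 tested, median log2 0.23 in primed_4d over LIF_2i (27.5% and 2.5%, against 18.3% and 19.6% of all genes). In primed_4d over rosette_LIM they were called 19 higher and 1 lower of 40 tested, median log2 0.33 (47.5% and 2.5%, against 17.1% and 19.0% of all genes), and in rosette_LIM over LIF_2i 0 higher and 2 lower of 40 tested, median log2 −0.17 (0% and 5%, against 3.18% and 2.34% of all genes). The summed level was 8816 and 9379 CPM in primed_4d, 7100.5 and 7129 CPM in rosette_LIM, and 8091 and 8372 CPM in LIF_2i, lowest in rosette_LIM in both lines. Ebna1bp2, an rRNA processing factor, had 391 and 353 CPM in primed_4d, 158 and 157 CPM in rosette_LIM, and 168 and 148 CPM in LIF_2i. Both primed_4d libraries were above every other library (log2 1.25 ± 0.11, edgeR adjusted p = 6.12e-07 over LIF_2i). Gar1, of the particles that modify rRNA to pseudouridine, rose over LIF_2i (log2 0.60 ± 0.11, edgeR adjusted p = 0.000705), and Wdr12, a partner of Pes1 and Bop1, over rosette_LIM (log2 0.88 ± 0.13, edgeR adjusted p = 0.000113). Ubtf, a factor of RNA polymerase I, fell in primed_4d over LIF_2i (log2 −0.87 ± 0.13, edgeR adjusted p = 0.000143). The rRNA methyltransferase Nop2 and the assembly factor Noc3l were the 2 genes lower in rosette_LIM than in LIF_2i (log2 −0.42 ± 0.11, edgeR adjusted p = 0.0401 for Nop2, and log2 −0.56 ± 0.14, edgeR adjusted p = 0.0291 for Noc3l).

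Of the Myc family, 3 of 5 genes tested were called higher in primed_4d over LIF_2i and 0 lower (60% and 0%, against 18.3% and 19.6% of all genes). Myc had 52.5 and 41.3 CPM in primed_4d, 9.29 and 10.8 CPM in rosette_LIM, and 18.4 and 15.3 CPM in LIF_2i (log2 1.49 ± 0.18, edgeR adjusted p = 1.63e-05). It was lowest in rosette_LIM in both lines, and over rosette_LIM Myc and Mycn rose in primed_4d by 2.19 and 0.36. Mycn had 239 and 211 CPM in primed_4d, 181 and 165 CPM in rosette_LIM, and 124 and 90.8 CPM in LIF_2i, in the order LIF_2i, rosette_LIM, primed_4d in each line (log2 1.09 ± 0.12, edgeR adjusted p = 5.72e-06 in primed_4d, and log2 0.73 ± 0.12, edgeR adjusted p = 0.00234 in rosette_LIM, both over LIF_2i). Mxd4, an antagonist of Myc, had 4.15 and 2.78 CPM in primed_4d, 1.74 and 1.88 CPM in rosette_LIM, and 0.384 and 0.582 CPM in LIF_2i. Its rise over LIF_2i (log2 2.82 ± 0.61, edgeR adjusted p = 0.00202) rests on few counts. The ribosomal proteins of mitochondria, encoded in the nucleus, were called 9 higher and 9 lower of 76 tested, median log2 0.01 in primed_4d over LIF_2i (11.8% and 11.8%, against 18.3% and 19.6% of all genes). In primed_4d over rosette_LIM they were called 13 higher and 10 lower of 76 tested, median log2 0.00 (17.1% and 13.2%, against 17.1% and 19.0% of all genes), and in rosette_LIM over LIF_2i 0 higher and 1 lower of 76 tested, median log2 −0.02 (0% and 1.32%, against 3.18% and 2.34% of all genes). Their share of gene counts was 0.619 and 0.644% in primed_4d, 0.622 and 0.622% in rosette_LIM, and 0.637 and 0.637% in LIF_2i. Against LIF_2i, Mrpl23 rose in primed_4d (log2 0.86 ± 0.16, edgeR adjusted p = 0.000723), and Mrps7 and Mrpl14 fell (log2 −0.69 ± 0.13, edgeR adjusted p = 0.00102 for Mrps7, and log2 −0.62 ± 0.14, edgeR adjusted p = 0.00363 for Mrpl14). Against rosette_LIM, Mrpl16, Mrpl34 and Mrpl23 rose most in primed_4d, by 1.07, 0.77 and 0.64 on the log2 scale, and Mrpl16 was the gene lower in rosette_LIM than in LIF_2i (log2 −0.69 ± 0.16, edgeR adjusted p = 0.0204). The ERCC-scaled values of the single genes of these lists over LIF_2i are not given here. With that scaling all genes shifted by a median of −0.57 in primed_4d and −0.55 in rosette_LIM.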

How the data were processed

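SORT-seq libraries of single cells (1 library per line and condition, 188 wells each) were analysed. The authors' deposited table holds estimated counts per gene and well: UMIs corrected for collisions of their codes, since all 1297 distinct values equal a whole number so corrected for 4096 codes, within 0.005. Per the submitters' processing notes, BWA and GRCm38/mm10 were used; the annotation, the counting and the treatment of multiple matches are found in none of the sources used here. Each well column was matched to its sample by name, and 0 columns belonged to other samples.

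Counts were summed per library, rounded to whole numbers and tested in edgeR 4.0.16 (R 4.3.3; TMM, quasi-likelihood, two-sided, Benjamini-Hochberg over 12098 genes with a minimum count of 10, threshold 0.05) with condition and cell line in the model; DESeq2 1.42.0, limma 3.58.1 as an edgeR dependency, and Python 3.11.15 with numpy 2.4.6, pandas 2.3.3, scipy 1.17.1 and matplotlib 3.10.9 did the rest. The 91 ERCC rows (1.75% of all counts) stayed out of totals and tests. CPM was computed from the deposited counts. The exact binomial intervals are at 95%. The line pairs the libraries, per the labels; the IB10 minus R1 deviations of 2 conditions correlated at 0.0812 to 0.178 across genes. The fit was tested on simulated data, with changed genes drawn from all levels and 1 common spread for all genes. It recovered 0% of genes given a rise of log2 0.25, 16% at 0.5, 77.6% at 1 and 100% at 2. Small changes can thus go without a call. Alternatives were DESeq2, other scalings (library size alone, TMM without these rows, ERCC), no count filter, no line or condition term, deeper wells, uncorrected UMIs, the 2 deepest wells left out, and each library left out.

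The members, lists and tests were chosen with earlier results of these data known. Genes were named by rule: in each comparison the 6 largest changes each way among the rows called, the 5 rows with the most and the 5 with the fewest UMIs, the stalk genes, Rpsa, Rpl5, Rpl11, Rps19bp1, the paralogs with their parents, rows on chromosomes 6 and 8 in IB10 over R1, and the 3 largest called changes of other lists. Other genes were named after their values were seen. Results for a few genes are not reported here; counts, sums and medians include them. Mitochondrial genes were taken by their chromosome, after the data were seen, since symbols in mt- mark only their rRNA and tRNA genes. Promoter sequences are RefSeq's, GRCm38.p6.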

Additional observations from a re-analysis of the deposited data

Results flagged for a closer look

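Some of the named rows moved in opposite directions in the lines. The values are log2 changes by CPM, given as IB10 minus R1 and then within each line; each line has 1 library per condition, and these differences were not tested. Among all rows tested, opposite directions were found in 16 of 83 in primed_4d over LIF_2i, 23 in primed_4d over rosette_LIM and 21 in rosette_LIM over LIF_2i.

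In primed_4d over LIF_2i the lines differed for Rplp2 by 0.79 (0.10 in IB10 and −0.69 in R1), Rpl39l by 1.23 (0.39 in IB10 and −0.84 in R1), Rpl41 by −0.32 (−0.02 in IB10 and 0.30 in R1) and Rpl4 by −0.14 (−0.05 in IB10 and 0.09 in R1). In primed_4d over rosette_LIM they differed for Rps19bp1 by −0.50 (−0.40 in IB10 and 0.10 in R1), Rpl22l1 by 1.38 (0.96 in IB10 and −0.42 in R1), Rpl7l1 by −0.39 (−0.32 in IB10 and 0.07 in R1), Rps27l by −0.17 (−0.12 in IB10 and 0.06 in R1), Rpl36al by −0.19 (−0.07 in IB10 and 0.12 in R1), Rps4y2 by 0.27 (0.09 in IB10 and −0.17 in R1), Rpl39 by −0.12 (−0.07 in IB10 and 0.05 in R1) and Rpl4 by 0.47 (0.32 in IB10 and −0.14 in R1). In rosette_LIM over LIF_2i they differed for Rpl5 by −0.23 (−0.06 in IB10 and 0.17 in R1), Rpl39l by 0.67 (0.54 in IB10 and −0.13 in R1), Rps4y2 by −0.30 (−0.25 in IB10 and 0.04 in R1), Rpl3 by −0.19 (−0.18 in IB10 and 0.02 in R1) and Rpl4 by −0.60 (−0.37 in IB10 and 0.23 in R1). Rpl4, the row with the most counts, was among them in all 3 comparisons, which share libraries. Rpl39l was among them in both comparisons with LIF_2i, and its R1 LIF_2i library was the highest of the 6. Rplp2 and Rpl22l1 rest on 113 and 71 UMIs in all.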

How the results depend on the processing

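Scaling to the ERCC counts moved the median over the ribosomal protein rows to −0.34 in primed_4d over LIF_2i and to −0.46 in rosette_LIM over LIF_2i. Rpl39 was then at −0.14 in rosette_LIM over LIF_2i. In primed_4d over LIF_2i, Rpl37 was at −0.028, Rps4x was at −0.062, Rps23 was at −0.092, Rpl22 was at −0.13, Rpsa was at −0.26, Rpl5 was at −0.27, Rpl11 was at −0.20, Rps27l was at −0.25, Rpl39 was at −0.18, Rpl7 was at −0.17. With this scaling 0, 0 and 0 rows were called higher in primed_4d over LIF_2i, primed_4d over rosette_LIM and rosette_LIM over LIF_2i, 0 were lower in primed_4d over rosette_LIM and 0 in IB10 over R1, and 2004 and 22 of all genes were called in the last 2 of these comparisons. DESeq2 called 21 rows higher and 0 lower in primed_4d over LIF_2i, and 10 higher and 1 lower in primed_4d over rosette_LIM; of all genes it called 2775 and 2702 there, 279 in rosette_LIM over LIF_2i and 48 in IB10 over R1.

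The cell line paired the libraries as a replicate block. With no replicate block, 17 rows were called higher and 0 lower in primed_4d over LIF_2i, 9 and 1 in primed_4d over rosette_LIM, and 0 higher in rosette_LIM over LIF_2i, with 281 of all genes; with no condition term 0 rows and 0 of all genes were called in IB10 over R1. No count filter gave 2 rows higher and 1 lower in rosette_LIM over LIF_2i (all genes 1049), 4 lower in primed_4d over rosette_LIM, and 8 lower in IB10 over R1 (all genes 328). Library size alone, and TMM without ribosomal protein rows, each gave 1 row lower in rosette_LIM over LIF_2i, and the second 1 lower in primed_4d over LIF_2i. Without the 2 wells over 300000 UMIs, an alternative chosen after seeing the data like the use of uncorrected UMIs, 2 rows were higher in rosette_LIM and 1 lower in primed_4d over LIF_2i.

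Leaving out each library in turn gave 1 to 38 rows higher and 0 to 2 lower in primed_4d over LIF_2i (all genes 2319 to 5454), 6 to 23 and 1 to 4 in primed_4d over rosette_LIM (all genes 3060 to 3900), 0 to 4 and 0 to 2 in rosette_LIM over LIF_2i (all genes 64 to 997), and 0 to 7 lower in IB10 over R1 (all genes 0 to 379). The lone library of a condition is then taken to vary like the others. The LIF_2i share became 14.3% without paralogs and Rps19bp1, 16.2% without mitochondrial genes in the total (18.2% in primed_4d and 16.5% in rosette_LIM) and 14.4% with ERCC rows in the total. Without paralogs the ratio of small to large subunit counts was 0.699 in primed_4d and 0.677 in LIF_2i. The median well share of LIF_2i was 14.3% thinned to 6000 counts, 14.3% with 3000 or more and 14.4% with no minimum. Apart from the values named, the cause of these changes was not tested. With 1 library per line and condition, the test misses small changes, and rows under 25 CPM are limited by depth.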

Other observations

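Rpl10l, the intronless copy of Rpl10, held 0.0118% to 0.0400% of gene counts in the 6 libraries, and the other 5 rows left out of the set, named as pseudogenes, held 0.00219% to 0.00342% in all. Of these 6 rows, 1 was lower in primed_4d over LIF_2i and 1 in primed_4d over rosette_LIM, in each case Rpl10l. In IB10 over R1, Rps15a-ps6 was lower (−1.82 ± 0.34 on the log2 scale, edgeR adjusted p = 0.0225). The mRNA genes of the mitochondrial genome were called 0 higher and 4 lower of 13 tested in primed_4d over LIF_2i (0% and 30.8%, against 18.3% and 19.6% of all genes) and 0 higher and 5 lower of 13 tested in primed_4d over rosette_LIM (0% and 38.5%, against 17.1% and 19.0% of all genes). The largest of these falls over LIF_2i were those of mtCo1, of cytochrome c oxidase (log2 −0.48 ± 0.15, edgeR adjusted p = 0.0203), and mtNd1, of NADH dehydrogenase (log2 −0.44 ± 0.09, edgeR adjusted p = 0.00134). The rRNA and tRNA genes of mitochondria, of which 12 of 24 had enough counts, were called 0 higher and 6 lower of 12 tested in primed_4d over LIF_2i (0% and 50%, against 18.3% and 19.6% of all genes).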
